A study of Mus musculus with 18 samples.

Results

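Mouse embryoid bodies 24 h after induction of the transcription factor Msgn1 were compared with uninduced embryoid bodies of the same age. The comparison rests on 6 of the 18 arrays in the series, chosen by their titles: 3 arrays with doxycycline and 3 without it at 24 h. Embryoid bodies are floating balls of differentiating embryonic stem cells. Every sample came from the A2lox-Flag-Msgn1 line of strain 129P2, and carried the inducible Flag-Msgn1 gene whether or not doxycycline was given. The cells had been kept with LIF on mitomycin-treated fibroblasts, were aggregated for 2 days, and then received 1 µg/ml doxycycline (induced) or none (uninduced). The labels describe 1 line and no doxycycline-treated line without the transgene, so the effects of the drug and of the transgene cannot be told apart. The replicates are labelled biological, and nothing says more about how their cultures were separated, so p-values measure the spread between these samples.

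Msgn1 (mesogenin 1) is a basic helix-loop-helix factor that binds DNA with a partner at E-boxes, sites of the form CANNTG. It is made in the presomitic mesoderm, the tissue at the tail of the embryo that is cut into somites under the control of Notch, Wnt and Fgf signals. In mouse embryos that lack it, posterior presomitic mesoderm does not mature and progenitors collect in the tail bud. In these cultures presomitic markers begin to be made on day 3, per the labels, which is the day of the 24 h samples.

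Each gene was read by 1 probe set, a group of short probes whose deposited signal is linear and scaled per array. A difference is that of group means of log2(signal + 32), induced minus uninduced, with the standard error (SE) of a fit over all 18 arrays and 3 arrays a group. Adding 32 shrinks the change of dim genes. Calls are adjusted p-values under 0.05 over 14282 tested genes (limma, Benjamini-Hochberg). These arrays measure RNA of whole embryoid bodies, in which more cells of a type and more RNA per cell cannot be told apart.

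The arrays numbered 3 differed from their groups in the same way. Correlations of replicates at 24 h lay between 0.990 and 0.994 on the log2 scale, but the deviations of array 3 from the mean of its group correlated at 0.44 across genes between the uninduced and the induced group. For the arrays numbered 1 and 2 the same figure was 0.20 and 0.14, and for arrays of unlike number it ran from -0.32 to 0.20. Genes are not independent replicates, and these figures are descriptions. The median signal was 19.7 and 19.8 on the arrays numbered 3 against 20.9 to 22.1 on the other 4, and the ratio of the 3′ to the 5′ control probe sets of Actb, a measure of how complete the labelled RNA is, was 1.95 and 2.10 against 1.54 to 1.68. The ratio for Gapdh was 0.901 and 0.924 against 0.855 to 0.872.

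**Figure D1:**
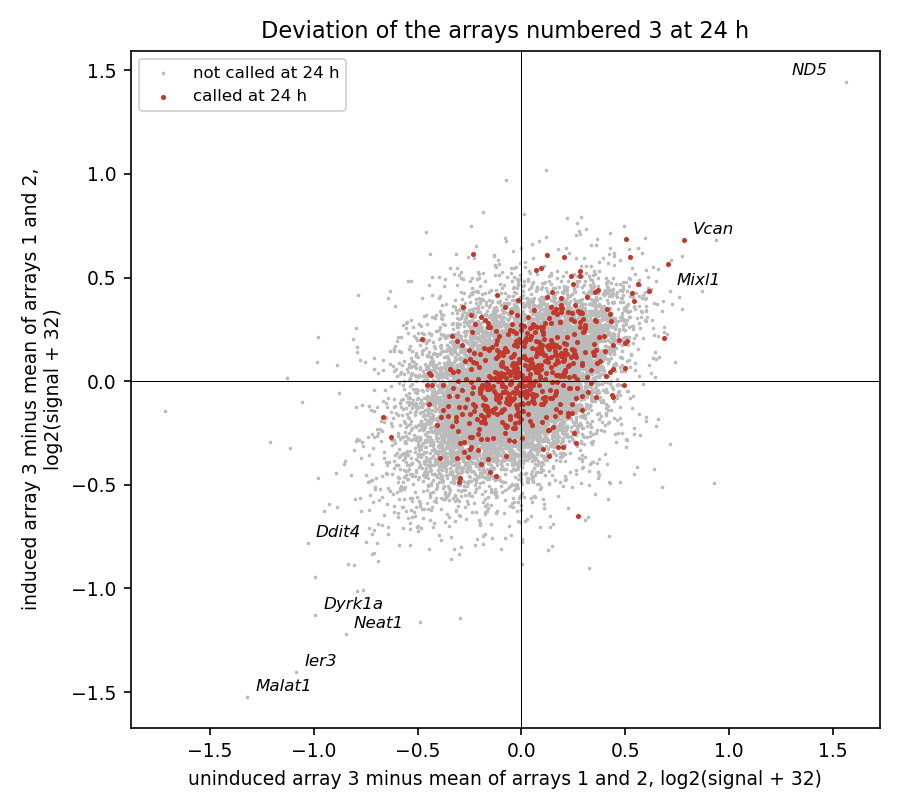
Deviation of array 3 from the mean of arrays 1 and 2 of its group, on the log2(signal + 32) scale, in the uninduced (x axis) and induced (y axis) group at 24 h, with 1 point per tested gene and red points for genes called between the groups. Points run along the diagonal (66.0% have the same sign on both axes), with ND5 far up to the right and Malat1 and Ier3 far down to the left.

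Named genes show what the arrays numbered 3 shared. The mitochondrial gene ND5, a subunit of respiratory complex I, read 2405, 2319 and 7037 in the uninduced arrays and 2550, 2156 and 6444 in the induced arrays, so that array 3 was highest in both groups. The nuclear long noncoding RNA Malat1 read 1665, 1830 and 679.5 in the uninduced arrays and 2141, 1137 and 522 in the induced arrays, with array 3 lowest in both. Neat1, another nuclear noncoding RNA, read 167, 132 and 68.5 in the uninduced arrays and 134, 97.1 and 30.9 in the induced arrays, again lowest in array 3. Shifts of at least 0.5 in both groups touched 96 genes, 18 of them higher and 78 lower in the arrays numbered 3. Beside ND5 the largest shared rises were those of Vcan, Sall3, Qk, Pik3c2a, Zfhx3, Heatr5a, Mixl1, Taok1 and Tor1aip1, with both deviations from 0.55 to 0.94. The largest shared losses beside Malat1 and Neat1 were those of Ier3, Dyrk1a, Zap70, Snrnp70, Copa, Hspa14, Ddit4 and Ccdc91, from -0.76 to -1.41. Of the 96 genes 4 were called between induced and uninduced, among them Mixl1, Vcan and Aplnr, where 3.91% of all tested genes were called. Members of the primitive streak list had a median deviation of 0.26 uninduced and 0.25 induced in array 3, and glycolysis and hypoxia genes -0.43 and -0.13. Summed signal of the latter list was 58760, 67480 and 52390 uninduced and 66850, 67250 and 63790 induced. Uninduced array 2 thus lay above the other uninduced arrays, which adds to the deviation of -0.43. What made the arrays numbered 3 differ was not tested.

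Since the arrays numbered 3 shared a deviation at 24 h, the induced and uninduced arrays of 1 number were also compared within their pair. Numbers 1 and 2 pair by label only: uninduced array 2 correlated at 0.20 with induced array 1 and 0.14 with induced array 2. With the pair as a block 725 genes were called, 556 of the 558 called without it. Without both arrays numbered 3 the count was 328, of which 291 were among the 558.

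Msgn1 itself read 11.99, 16.3 and 5.22 in the uninduced arrays and 56.7, 52.9 and 67.3 in the induced arrays. The groups did not overlap and array 3 was highest of the induced arrays and lowest of the uninduced. The difference was 1.08 ± 0.12 (adjusted p = 2.59e-06), against 1.01 ± 0.12 at 12 h and 1.13 ± 0.12 at 48 h, where neither step between times was called (adjusted p = 0.961 and 0.948). Only 1 probe set was matched to the gene. Which part of this signal comes from the inserted copy was not tested.

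Induction changed the level of 558 genes at 24 h, 3.91% of those tested. Of these, 416 (2.91%) were higher and 142 (0.994%) lower in the induced arrays, and 2175 genes had an unadjusted p under 0.05. The rises were the larger changes. As folds of signal + 32, which are smaller than those of the signal itself, 37 genes rose by 2-fold or more and 7 by 4-fold or more, while the largest fall was 1.93-fold. In that gene, Kbtbd11, the mean deposited signal went from 291 to 135. The median called rise was 0.52 and the median called fall -0.43 on the log2 scale. The 3 induced arrays lay beyond all 3 uninduced arrays for 407 of the 416 rises, against 10.4% of all genes in that direction, and for 140 of the 142 falls, against 7.79%. In each of the 3 numbered pairs all 558 genes moved in the direction of their call. Over all tested genes 22.2% rose and 19.3% fell in every pair. The 558 were chosen by their difference on these same arrays, so the counts of overlap and direction describe them and are no separate evidence. The median rise was 0.50, 0.56 and 0.55 in pairs 1, 2 and 3. The count of calls was sensitive to single arrays: 306 genes were called without induced array 2 and 331 without uninduced array 1, and 199 rises and 29 falls were called whichever single array was left out.

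**Figure D2:**
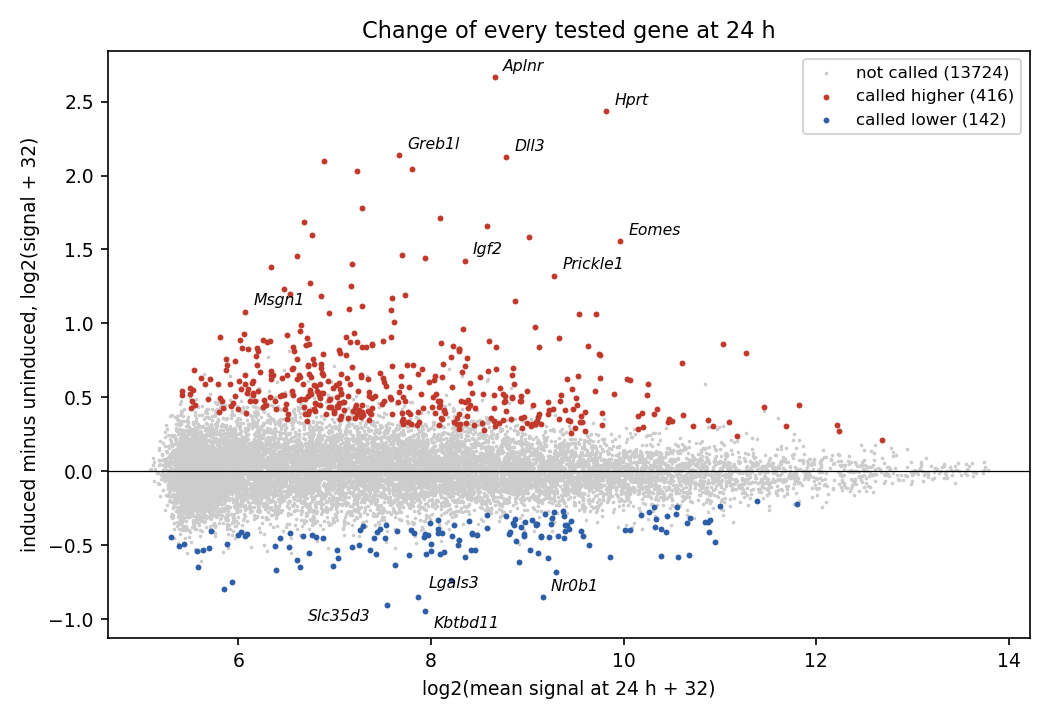
Difference of every tested gene at 24 h (y axis, induced minus uninduced on the log2(signal + 32) scale) against its mean level over the 6 arrays (x axis, log2 of the mean signal + 32), with 416 genes called higher in red, 142 called lower in blue and the other 13724 in grey. The rises reach 2.66 (Aplnr) and the falls -0.95 (Kbtbd11).

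The 30 largest rises among named genes with groups that did not overlap were led by Aplnr, Hprt, Greb1l, Dll3, Rasgrp3, Fabp7 and Wnt5a, each at least 4-fold higher as a fold of signal + 32. All 30 were called whichever single array was left out, without both arrays numbered 3, and with the pair as a block. Array 3 held the highest induced signal for 21 of the 30 and the highest uninduced signal for 19. Of the 30, 16 were also called higher at 12 h, where 0.896% of all genes were, and 24 at 48 h, where 6.85% were. The 20 largest falls were smaller. Of these, 14 were called whichever single array was left out and 15 without both arrays numbered 3.

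**Figure D3:**
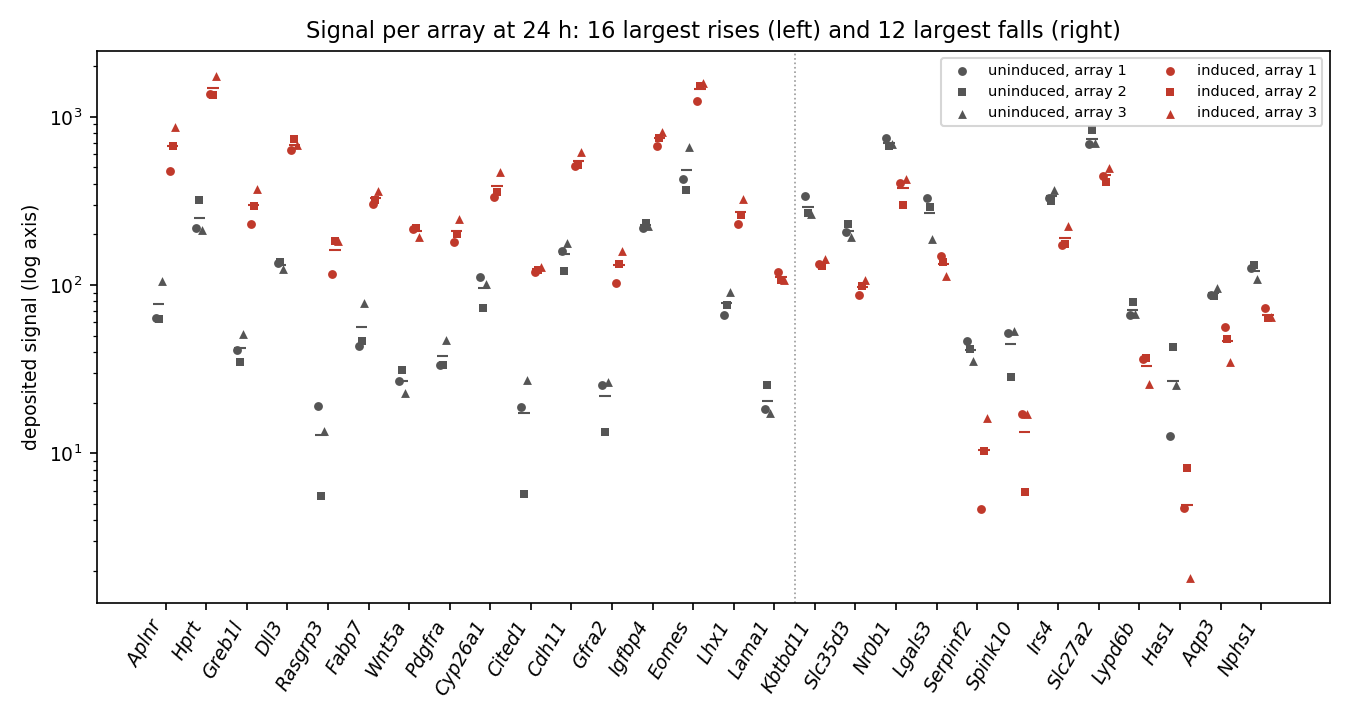
Deposited signal on each of the 6 arrays at 24 h (log axis) for the 16 largest rises and, right of the dotted line, the 12 largest falls, with circles, squares and triangles for arrays 1, 2 and 3, grey for uninduced, red for induced and a short line at each group's mean. No gene's groups overlap, which was a condition of their choice. For Aplnr, Greb1l and Eomes the triangles are highest in both groups.

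Because Msgn1 binds E-boxes, the 250 bases before the start of the rising genes were searched in RefSeq promoter windows of build GRCm38.p6. Of the 30 largest rises 22 had a window, and 4 of these 22 genes had a window with CAAATG, read on either strand as CAAATG or CATTTG. By window the share was 12.1% of 33. Printed here is such a window of each of the 4 genes, so the prints show the motif because they were chosen for it. Capitals mark every match of CANNTG, which includes CAAATG and CATTTG. For Igf2, with 4 windows, the window shown is the first listed that holds the motif. The windows lie at chr17:75465288-75465537 on the + strand for Rasgrp3, chr10:57784673-57784922 on the + strand for Fabp7, chr7:142666817-142667066 on the - strand for Igf2 and chr2:124653331-124653580 on the + strand for Sema6d, each printed 5′ to 3′ in the sense of the gene and ending just before its start.
Rasgrp3: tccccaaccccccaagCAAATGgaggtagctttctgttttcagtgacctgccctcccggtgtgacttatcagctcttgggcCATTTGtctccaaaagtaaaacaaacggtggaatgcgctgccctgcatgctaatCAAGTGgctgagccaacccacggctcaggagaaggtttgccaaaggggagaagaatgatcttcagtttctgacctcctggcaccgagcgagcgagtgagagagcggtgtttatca
Fabp7: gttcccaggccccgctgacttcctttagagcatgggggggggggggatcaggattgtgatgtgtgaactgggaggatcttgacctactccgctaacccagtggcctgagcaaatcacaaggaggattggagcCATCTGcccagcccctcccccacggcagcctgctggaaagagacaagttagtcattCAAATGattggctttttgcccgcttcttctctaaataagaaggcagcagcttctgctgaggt
Igf2: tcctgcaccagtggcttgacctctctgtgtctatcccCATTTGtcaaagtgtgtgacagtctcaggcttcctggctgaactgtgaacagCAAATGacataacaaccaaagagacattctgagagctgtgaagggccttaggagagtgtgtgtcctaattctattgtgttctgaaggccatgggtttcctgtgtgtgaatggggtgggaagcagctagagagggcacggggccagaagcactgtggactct
Sema6d: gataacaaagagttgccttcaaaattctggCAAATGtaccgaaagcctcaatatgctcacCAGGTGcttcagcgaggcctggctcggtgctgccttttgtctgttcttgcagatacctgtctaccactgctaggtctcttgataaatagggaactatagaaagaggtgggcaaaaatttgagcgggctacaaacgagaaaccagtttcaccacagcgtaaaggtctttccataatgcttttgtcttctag
Windows of Rasgrp3 and Igf2 hold 2 matches of CAAATG or CATTTG each, and those of Fabp7 and Sema6d hold 1. These letters are common: any CANNTG was present in 59.3% of 457 windows of genes called higher, in 67.1% of 152 windows of genes called lower and in 59.2% of 14619 windows of all tested genes. CAAATG or CATTTG was present in 11.6%, 6.58% and 8.38%, and CAGCTG, a further CANNTG form that is the same on both strands, in 14.2%, 15.1% and 12.5%. A match is a string of letters, and no binding was measured here.

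The genes behind these sequences differ in what they make. Rasgrp3 is an activator of Ras-type GTPases that responds to diacylglycerol. It read 19.3, 5.62 and 13.6 in the uninduced arrays and 116, 182 and 184 in the induced arrays, so that it went from near the lowest readable signals to well above them without overlap, a difference of 2.10 ± 0.15 (adjusted p = 4.04e-09). Fabp7, a fatty acid binding protein best known from radial glia, read 43.5, 46.9 and 77.8 in the uninduced arrays and 303, 319.7 and 359.9 in the induced arrays. It rose by 2.05 ± 0.14 (adjusted p = 3.1e-09). Igf2, the imprinted insulin-like growth factor 2, read 131, 149 and 152 in the uninduced arrays and 368, 465 and 498 in the induced arrays, with array 3 highest in each group and a difference of 1.43 ± 0.14 (adjusted p = 8.19e-07). Sema6d, a membrane-bound semaphorin that guides cells and axons, read 37.7, 36.8 and 68.8 in the uninduced arrays and 166, 150.5 and 216 in the induced arrays. Array 3 was again highest in both groups, and the difference was 1.40 ± 0.16 (adjusted p = 5.87e-06), with 1 of its 3 probe sets called.

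Signalling between neighbouring cells through Notch paces the cutting of somites. Of 16 measured Notch ligands, receptors and processing genes 6 rose and none fell, with a median difference of 0.25 against 0.0054 over all tested genes. Beside this and every later list count stand the shares over all tested genes, 2.91% called higher and 0.994% called lower. Dll3, a Notch ligand that acts inside the cell and is mutated in vertebral segmentation defects, read 135, 136 and 125 in the uninduced arrays and 637, 737 and 678 in the induced arrays. The groups lay far apart beside a narrow spread, and Dll3 rose by 2.12 ± 0.081 (adjusted p = 1.46e-13), the smallest p of any gene named here. The receptor Notch1 read 98.4, 79.05 and 117 in the uninduced arrays and 189.7, 237 and 262 in the induced arrays and rose by 1.01 ± 0.14 (adjusted p = 9.17e-05). The activating ligand Dll1 read 80.3, 100.1 and 80.3 in the uninduced arrays and 197, 166 and 187 in the induced arrays and rose by 0.86 ± 0.13 (adjusted p = 0.000198). Jag1, another ligand, and the receptor Notch3 rose by 0.69 ± 0.11 and 0.54 ± 0.10. The sixth call, Notch4, rose by 0.36 ± 0.10 and was lost when single arrays were left out (adjusted p = 0.199 without uninduced array 1).

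Genes that Notch switches on were listed apart from its ligands and receptors. Of 16 Notch targets and segmentation clock genes 3 rose and none fell, with a median of 0.25. Nrarp, a feedback inhibitor that binds the Notch intracellular domain, read 62.5, 73.2 and 64.1 in the uninduced arrays and 171, 203 and 173 in the induced arrays and rose by 1.12 ± 0.10 (adjusted p = 3.9e-07), with no overlap. Hes6, a Hes family member that opposes Hes1, rose by 0.50 ± 0.087 (adjusted p = 0.00137). Dact1, which modulates Wnt signalling and cycles in presomitic mesoderm, read 101, 91.8 and 105 in the uninduced arrays and 305, 303 and 370.3 in the induced arrays and rose by 1.45 ± 0.10 (adjusted p = 2.66e-09). The clock repressor Hes7 stood at -0.24 ± 0.18 (adjusted p = 0.596) and Hes1 at 0.41 ± 0.13 (adjusted p = 0.0921), neither of them called.

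Presomitic mesoderm regulators held the highest share of rises of any list: 9 of 11 measured members rose, none fell, and the median was 0.68. Without both arrays numbered 3 the count was 7. Cyp26a1, the enzyme that clears retinoic acid from the tail bud, read 112, 73.3 and 102 in the uninduced arrays and 334, 359.8 and 470.3 in the induced arrays. Its groups were far from overlapping and the difference was 1.72 ± 0.16 (adjusted p = 2.73e-07). Cited1, a transcriptional coregulator, read 18.8, 5.72 and 27.4 in the uninduced arrays and 120.1, 124 and 128 in the induced arrays and rose by 1.69 ± 0.17 (adjusted p = 7.88e-07). The Wnt enhancer Rspo3 read 43.9, 43.6 and 43.4 in the uninduced arrays and 96.2, 103 and 118 in the induced arrays, and the Wnt effector Lef1 read 373, 366 and 362 in the uninduced arrays and 634, 655 and 764 in the induced arrays. They rose by 0.86 ± 0.12 and 0.84 ± 0.13 (adjusted p = 0.000101 and 0.000202).

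Further factors that act beside Msgn1 in the making of paraxial mesoderm were dim but moved. Tbx6, without which paraxial mesoderm turns neural, read 8.48, 14.9 and 15.7 in the uninduced arrays and 40.1, 48.2 and 32.7 in the induced arrays and rose by 0.68 ± 0.11 (adjusted p = 0.000774). Mesp1, which marks the earliest mesoderm leaving the streak, read 43.1, 24.4 and 43.7 in the uninduced arrays and 61.5, 109 and 101 in the induced arrays and rose by 0.82 ± 0.16 (adjusted p = 0.00468). Foxc1, Tnfrsf19 and Pcdh19 rose by 0.59 ± 0.12, 0.48 ± 0.12 and 0.46 ± 0.12. The calls of the last pair did not survive single arrays: the highest adjusted p with 1 array left out was 0.118 without uninduced array 2 for Tnfrsf19 and 0.115 without induced array 3 for Pcdh19. Foxc1 was not called without both arrays numbered 3 (adjusted p = 0.138). Mesp2 and Pcdh8, which act at the forming somite border, stood at 0.19 ± 0.11 and -0.28 ± 0.16 and were not called. Somite genes proper gave 1 rise and 1 fall of 8 measured: Twist1, a bHLH factor of mesenchyme, rose by 0.62 ± 0.12 (adjusted p = 0.00252), and Tcf15 fell by 0.33 ± 0.085 (adjusted p = 0.0316; 0.106 without uninduced array 2).

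Genes of the primitive streak, the site where epiblast cells become mesoderm and endoderm, rose in 6 of 13 cases and fell in none, with a median of 0.52. Eomes, a T-box factor of early mesoderm and endoderm, read 427, 369 and 658 in the uninduced arrays and 1241, 1522 and 1595 in the induced arrays. Array 3 was the highest in each group, the groups did not overlap, and Eomes rose by 1.55 ± 0.16 (adjusted p = 2.21e-06). Lhx1, a LIM homeodomain factor of the anterior streak, read 66.2, 76.2 and 91.3 in the uninduced arrays and 231, 261 and 326 in the induced arrays and rose by 1.47 ± 0.17 (adjusted p = 5.77e-06). Mixl1, a homeodomain factor of the streak, read 86.2, 65.2 and 143 in the uninduced arrays and 199.6, 244 and 342 in the induced arrays. It is among the 10 genes most raised in both arrays numbered 3, and it rose by 1.19 ± 0.19 with them (adjusted p = 0.000412) and by 1.24 without them (adjusted p = 0.000179). The Wnt-responsive zinc finger factors Sp5 and Sp8 rose by 0.88 ± 0.16 and 0.70 ± 0.13, and Evx1, a homeodomain factor of the posterior streak, by 0.65 ± 0.15 (adjusted p = 0.0156; 0.0964 without induced array 3). Nodal, Wnt3a and Foxa2 stood at -0.35, 0.04 and -0.036, and none was called.

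Of 18 canonical Wnt ligands, R-spondins and receptors 2 rose (11.1%, against 2.91% of all tested genes) and none fell, with a median of 0.089. They were Rspo3 and the receptor Fzd10 (Fzd10 by 0.39 ± 0.11, adjusted p = 0.0404, and 0.188 without uninduced array 1). Among antagonists and targets 6 of 19 rose and none fell, with a median of 0.36; 4 of them are Dact1, Sp5, Lef1 and Sp8 above. The secreted inhibitors Dkk1 and Frzb rose by 0.52 ± 0.13 and 0.54 ± 0.14, with adjusted p = 0.0303 and 0.0338, and both were lost when 1 array was left out (adjusted p = 0.167 without induced array 3 and 0.161 without induced array 3). The target gene Axin2 stood at 0.43 ± 0.13 and did not pass (adjusted p = 0.0578), but it was called with the pair as a block (adjusted p = 0.0276) and without both arrays numbered 3 (adjusted p = 0.0415).

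The noncanonical branch of Wnt signalling, which orients cells within a tissue, contributed some of the clearest rises. Wnt5a, its main ligand in the tail of the embryo, read 26.9, 31.4 and 22.9 in the uninduced arrays and 216, 218 and 193 in the induced arrays. All 3 of its probe sets were called higher, and the one used rose by 2.03 ± 0.12 (adjusted p = 1.78e-10). Prickle1, a cytoplasmic planar polarity protein, read 344, 276 and 349.7 in the uninduced arrays and 832, 894 and 834 in the induced arrays and rose by 1.32 ± 0.093 (adjusted p = 4.04e-09); of its 3 probe sets 1 was called. The Wnt5a receptor Ror2 read 73.7, 67.96 and 107 in the uninduced arrays and 126, 129 and 120.2 in the induced arrays and rose by 0.47 ± 0.10 (adjusted p = 0.0107; 0.0722 without uninduced array 2). With these, 3 of 20 measured members rose and none fell, and the median of the list was 0.06. Vangl2 and Celsr1, core polarity membrane proteins, stood at -0.28 and -0.19 without a call.

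Fgf ligands moved one by one. Fgf10, a ligand of mesenchyme, read 8.61, 17.4 and 14.8 in the uninduced arrays and 50.8, 53.5 and 52.1 in the induced arrays and rose by 0.89 ± 0.13 (adjusted p = 0.000187). Fgf4, the ligand of pluripotent cells and the streak, read 782, 744 and 591 in the uninduced arrays and 555, 505 and 469 in the induced arrays and fell by 0.44 ± 0.094 (adjusted p = 0.00796; 0.0663 without uninduced array 1). These were the calls among 11 measured ligands, and Fgf8 stood at 0.23 ± 0.16. Of 15 Fgf receptors, feedback inhibitors and targets 2 rose: Spred1, an inhibitor of Ras to Erk signalling, by 0.47 ± 0.08 (adjusted p = 0.000927), and Fgfr1, the main receptor of mesoderm, by 0.50 ± 0.14 (adjusted p = 0.0418; 0.227 without uninduced array 1). Cyp26a1 was the 1 call of 15 genes of retinoic acid metabolism and response (6.67%, near the 3.91% of all tested genes).

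The Bmp and Nodal lists each held 3 rises and no fall. Of 18 Bmp genes the targets Id1, Smad6 and Msx1 rose. Id1, an inhibitor of bHLH factors, read 608, 539 and 645 in the uninduced arrays and 1009, 1130 and 1027 in the induced arrays and rose by 0.79 ± 0.10 (adjusted p = 2.37e-05). Smad6, an inhibitory Smad, and Msx1, a homeodomain factor, rose by 0.76 ± 0.12 and 0.64 ± 0.10 (adjusted p = 0.000578 and 0.000362). The ligand Bmp4 stood at 0.23 ± 0.23 (adjusted p = 0.716). Of 15 Nodal genes the antagonist Lefty2 read 924, 897 and 1013 in the uninduced arrays and 1408, 1436 and 1466 in the induced arrays and rose by 0.59 ± 0.10 (adjusted p = 0.001). The coreceptor Tdgf1 and the nuclear partner Foxh1 rose by 0.45 ± 0.10 and 0.31 ± 0.082 (highest adjusted p with 1 array left out 0.0748 without induced array 2 and 0.208 without induced array 2); without both arrays numbered 3 they were not called (adjusted p = 0.0574 and 0.0726), which left 1 call of 15.

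Some receptors that steer migrating mesoderm rose. Aplnr, the receptor for apelin and Elabela on mesoderm leaving the streak, read 64.1, 62.97 and 105 in the uninduced arrays and 475, 666 and 869 in the induced arrays. Signal in array 3 was highest in both groups, the groups lay far apart, and the rise of 2.66 ± 0.19 was the largest of any gene (adjusted p = 6.19e-09). Pdgfra, the PDGF receptor of paraxial mesoderm, read 33.4, 33.5 and 47.1 in the uninduced arrays and 179, 201 and 248 in the induced arrays and rose by 1.78 ± 0.14 (adjusted p = 2.01e-08). Gfra2, a coreceptor for neurturin, read 25.6, 13.4 and 26.7 in the uninduced arrays and 103, 134 and 159 in the induced arrays and rose by 1.60 ± 0.13 (adjusted p = 2.01e-08), on 1 of its 4 probe sets, marked by its name as able to read other transcripts too. The chemokine receptor Cxcr4 read 22.04, 17.9 and 32.7 in the uninduced arrays and 77.96, 92.2 and 123 in the induced arrays and rose by 1.20 ± 0.12 (adjusted p = 1.84e-06). With Pdgfrb, which rose by 0.45 ± 0.095, 5 of 17 measured receptors and ligands of this group rose and none fell. The matching ligands did not pass: Apln stood at 0.22, Apela at -0.16, Pdgfa at 0.048 and Cxcl12 at -0.12. The median of the list was 0.06.

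Eph receptors and their ligands, the ephrins, guide cells through contact. Of 16 members 3 rose and none fell, with a median of 0.24. Epha4, which helps set somite borders, read 70.05, 69.6 and 124 in the uninduced arrays and 218, 198 and 292 in the induced arrays and rose by 1.17 ± 0.15 (adjusted p = 4.74e-05). Epha7 and the ligand Efna3 rose by 0.73 ± 0.14 and 0.70 ± 0.14 (adjusted p = 0.00288 and 0.00528; 0.053 without induced array 2 for Efna3). The semaphorin receptor Plxna2, in no list, read 23.9, 7.42 and 34.2 in the uninduced arrays and 83.3, 101 and 90.5 in the induced arrays and rose by 1.23 ± 0.18 (adjusted p = 0.000174), with all 4 of its probe sets called.

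Genes of blood and vessel progenitors rose in 9 of 22 cases and fell in none, with a median of 0.33. Fli1, an Ets factor of that lineage, read 39.2, 25.7 and 28.1 in the uninduced arrays and 106, 129 and 124 in the induced arrays. It rose without overlap by 1.27 ± 0.14 (adjusted p = 2.94e-06). Kdr, the main VEGF receptor and a mark of mesoderm that forms blood, vessels and heart, read 37.8, 40.5 and 38.1 in the uninduced arrays and 112, 133 and 144 in the induced arrays and rose by 1.19 ± 0.15 (adjusted p = 2.06e-05). Flt1, a second VEGF receptor, read 58.7, 59.96 and 55.2 in the uninduced arrays and 144, 174 and 165 in the induced arrays and rose by 1.10 ± 0.14 (adjusted p = 3.37e-05). Etv2 and Tal1, early regulators of the lineage, rose by 0.85 ± 0.12 and 0.80 ± 0.12 (adjusted p = 8.45e-05 and 0.000148). Sox18, Hhex, Sox7 and Lmo2 rose by 0.64, 0.58, 0.52 and 0.41, and each of these 4 was lost on leaving out 1 array, with a highest adjusted p of 0.0524 without induced array 2, 0.0525 without uninduced array 2, 0.108 without induced array 2 and 0.236 without induced array 2.

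Lateral and cardiac mesoderm factors rose in 4 of 20 cases, with a median of 0.15 and no fall. Gata6, a zinc finger factor, read 64.1, 53.1 and 57.2 in the uninduced arrays and 102, 99.1 and 133 in the induced arrays. Gata4, of the same family, read 19.02, 14.7 and 25.8 in the uninduced arrays and 33.6, 61.4 and 55.2 in the induced arrays. They rose by 0.66 ± 0.13 and 0.65 ± 0.12 (adjusted p = 0.00355 and 0.00232), Msx1 was described above, and the T-box factor Tbx3 rose by 0.51 ± 0.14 (adjusted p = 0.0469; 0.214 without uninduced array 2). Without both arrays numbered 3 the calls were 2 of 20, since Gata6 (adjusted p = 0.0653) and Tbx3 (adjusted p = 0.249) did not pass. Hand2 and Foxf1, which stood at 0.23 and -0.11 at 24 h, were not called.

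Cells leaving the streak loosen their epithelial contacts, a change called epithelial to mesenchymal transition. Of 20 repressors, cadherins and epithelial factors 5 rose and 1 fell. Cdh11, a cadherin of mesenchyme, read 159, 121 and 178 in the uninduced arrays and 510.4, 520.5 and 616 in the induced arrays. It rose by 1.66 ± 0.13 (adjusted p = 1.62e-08) on both of its probe sets. Snai1 and Zeb2, repressors of E-cadherin, rose by 0.61 ± 0.13 and 0.59 ± 0.11 (adjusted p = 0.00574 and 0.00169), Snai1 with adjusted p = 0.0917 without both arrays numbered 3. N-cadherin (Cdh2) rose by 0.52 ± 0.11 (adjusted p = 0.00916; 0.0657 without uninduced array 2), and the epithelial factor Grhl2 fell by 0.44 ± 0.11 (adjusted p = 0.031; 0.142 without induced array 1). E-cadherin (Cdh1) stood at -0.12 ± 0.11 and Vim at 0.094 ± 0.063, and neither was called. Among 19 claudins and polarity genes Epcam fell by 0.23 ± 0.064 (adjusted p = 0.0417, and 0.186 without uninduced array 1) and no other was called. That is 5.26% of the list, near the 3.91% of all tested genes. Of 14 keratin and desmosome genes Dsp and Krt8 rose by 0.65 ± 0.13 and 0.42 ± 0.10. Both were lost on leaving out 1 array (adjusted p = 0.0519 without uninduced array 1 and 0.0679 without induced array 2), and without both arrays numbered 3 only Dsp was called.

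Matrix genes rose in part. Lama1, the laminin chain of early basement membranes, read 18.4, 25.4 and 17.4 in the uninduced arrays and 119.8, 107 and 107 in the induced arrays, and its rise of 1.45 ± 0.11 showed no overlap (adjusted p = 1.09e-08). Fibronectin (Fn1) read 1080, 1019 and 1285 in the uninduced arrays and 1635, 1719 and 2397 in the induced arrays and rose by 0.73 ± 0.15 (adjusted p = 0.005). With Itga8, which rose by 0.59 ± 0.15 (adjusted p = 0.0322; 0.175 without induced array 3), they were the 3 calls among 22 integrin, laminin and fibronectin genes, whose median was 0.088. Of 18 collagen chains 4 rose and none fell: Col13a1, Col4a1, Col4a2 and Col1a2, by 0.84, 0.83, 0.78 and 0.57 (adjusted p = 0.000566, 5.74e-05, 0.0007 and 0.0107).

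The stem cells had grown on fibroblasts, so fibroblast markers were read beside these matrix genes. Of 23 markers 5 were higher and 1 lower, their median was 0.03, and their summed signal was 3748, 3258 and 3206 uninduced and 4340, 4343 and 4025 induced. Fstl1, a secreted glycoprotein also made by mesoderm, read 500.1, 506 and 523 in the uninduced arrays and 1088, 1150 and 1071 in the induced arrays and rose by 1.07 ± 0.068 (adjusted p = 1.14e-09), which is most of that difference. Col1a2, Fbln1, Pdgfrb and Mmp2 rose by 0.57, 0.53, 0.45 and 0.39, and Ccl2 fell by 0.50; each of these 5 was lost on leaving out 1 array, with highest adjusted p of 0.0585 without induced array 2, 0.166 without induced array 1, 0.0518 without uninduced array 2, 0.112 without induced array 2 and 0.272 without uninduced array 1. The fibroblast markers Thy1, Dcn, Postn and Col1a1 differed by 0.029, -0.017, -0.065 and 0.056. The lowest deposited signal of any probe set was 0.0187, so signals above 0 do not show that fibroblasts were present.

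Muscle-type contractile genes rose in 3 of 19 cases. Cardiac actin (Actc1) read 61.99, 63.9 and 65.8 in the uninduced arrays and 134, 181 and 132 in the induced arrays and rose by 0.91 ± 0.11 (adjusted p = 2.32e-05). Tagln, an actin-binding protein of smooth muscle, rose by 0.70 ± 0.12 (adjusted p = 0.001), and skeletal actin (Acta1) by 0.49 ± 0.12 (adjusted p = 0.0231; 0.169 without induced array 2).

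Endoderm genes were measured as another fate of the streak. Of 18 definitive endoderm and node genes 2 rose, Cxcr4 and Hhex, which are shared with the lists above. Sox17, Foxa2 and Cer1, its defining members, stood at -0.008, -0.036 and -0.045, and the median was -0.015. Of 19 extraembryonic endoderm genes 7 rose and 1 fell. The 7 are Lama1, Pth1r, Col4a1, Col4a2, Gata6, Gata4 and Sox7, of which all but the receptor Pth1r stand in other lists here; Pth1r read 38.3, 18.1 and 15.96 in the uninduced arrays and 71.3, 79.1 and 58.8 in the induced arrays and rose by 0.88 ± 0.15 (adjusted p = 0.000965). Apoe, a carrier of lipids, fell by 0.41 ± 0.085 (adjusted p = 0.00588; 0.0568 without uninduced array 1). Sox17, Amn, Apob and Hnf4a of that list stood at -0.008, 0.14, 0.01 and 0.025, and Afp, Ttr and Apoa1 were too dim or not matched and were not tested. The summed signal of the list was 3897 to 4584 uninduced and 4240 to 4449 induced, which overlap.

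Some anterior Hox genes of the B cluster rose. Of 7 measured Hox genes of paralogue groups 1 to 4 there were 3 rises and no fall. Hoxb3 read 30.4, 25.3 and 10.8 in the uninduced arrays and 60.7, 63.8 and 76.6 in the induced arrays, Hoxb2 read 24.98, 17.4 and 31.3 in the uninduced arrays and 68.01, 88.5 and 60.3 in the induced arrays and Hoxb1 read 15.6, 11.1 and 16.9 in the uninduced arrays and 38.8, 53.2 and 46.3 in the induced arrays. For each gene the induced arrays lay above all uninduced ones, by 0.89 ± 0.12, 0.88 ± 0.17 and 0.75 ± 0.12 (adjusted p = 0.000112, 0.00315 and 0.000645). Of 11 measured members of groups 5 to 13 none was called and 3 had an unadjusted p under 0.05. The largest difference was that of Hoxa7, -0.61 ± 0.19 (adjusted p = 0.0818). Hoxa7 read 44.95, 33.03 and 6.50 in the uninduced arrays and 6.01, 6.75 and 4.90 in the induced arrays. The groups overlapped, and uninduced array 3 lay among the dim induced arrays. It was called with the pair as a block and in the fit without both arrays numbered 3 (adjusted p = 0.0432 and 0.00972). The second fit leaves out that uninduced array.

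Insulin-like growth factor and imprinted genes moved in both directions, 5 higher and 2 lower of 25. Beside Igf2, the binding protein Igfbp4 read 219, 235 and 225 in the uninduced arrays and 669, 743 and 817 in the induced arrays, and rose by 1.58 ± 0.11 (adjusted p = 4.04e-09) with 4 of its 6 probe sets called. The imprinted genes Peg3, a zinc finger factor, and Phlda2, a regulator of placental growth, rose by 0.79 ± 0.13 and 0.63 ± 0.13 (adjusted p = 0.000935 and 0.00445). Slc38a4 rose by 0.31 ± 0.087 (adjusted p = 0.0471; 0.189 without uninduced array 1). Irs4, an adaptor below the insulin-like receptors, read 331, 316 and 368 in the uninduced arrays and 174, 174 and 226 in the induced arrays and fell by 0.73 ± 0.13 (adjusted p = 0.00169). Impact, an inhibitor of Gcn2, fell by 0.32 ± 0.087 (adjusted p = 0.0391; 0.134 without induced array 2). The receptor Igf1r stood at 0.33 ± 0.13 and was not called. Of 10 growth regulators of the Lin28, Igf2bp and Myc families Hmga2, a chromatin protein of fetal growth, was the 1 call: it read 325, 318 and 351 in the uninduced arrays and 593, 685 and 779.9 in the induced arrays and rose by 0.97 ± 0.10 (adjusted p = 2.59e-06).

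Early neural genes gave 3 rises and 1 fall of 19. Fabp7 was by far the largest, Irx3 and Sox11 rose by 0.50 ± 0.10 and 0.35 ± 0.093, and Sox3, a SoxB1 factor of epiblast and neural plate, fell by 0.41 ± 0.11 (adjusted p = 0.0438). The highest adjusted p with 1 array left out was 0.212 without uninduced array 1 for Sox11 and 0.163 without induced array 1 for Sox3, and without both arrays numbered 3 the calls were 2 rises and no fall, with Irx3 at adjusted p = 0.0574.

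Among large rises outside these groups was Hprt. Hprt, the purine salvage enzyme, read 219, 321 and 212 in the uninduced arrays and 1372, 1343 and 1750 in the induced arrays. The groups lay far apart, and the rise of 2.44 ± 0.12 (adjusted p = 2.48e-11) was the second largest of any named gene. In A2lox lines the inducible cassette is inserted beside the Hprt gene on chromosome X, which is background and not a measurement. Of the 10 tested genes nearest to it, 5 on each side, none was called, with differences from -0.13 to 0.28 and 1 unadjusted p under 0.05. Of 13 other purine salvage and nucleotide enzymes none rose, and Gda, Pnp and Aprt fell by 0.40, 0.32 and 0.24 (adjusted p = 0.0149, 0.0418 and 0.0312), none of them called without both arrays numbered 3. Each was also lost on leaving out 1 array (adjusted p = 0.0714 without uninduced array 1, 0.236 without induced array 2 and 0.138 without uninduced array 1). Whether the cassette affects the Hprt signal was not tested.

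Other large rises belong to no list. Greb1l, whose loss disturbs kidney formation, read 40.99, 34.8 and 50.96 in the uninduced arrays and 229.9, 295 and 373 in the induced arrays. It rose without overlap by 2.14 ± 0.16 (adjusted p = 1.04e-08), on 1 of 2 probe sets. Ceacam10, a secreted member of the carcinoembryonic antigen family, read 10.3, 10.02 and 18.8 in the uninduced arrays and 85.03, 86.8 and 83.3 in the induced arrays and rose by 1.38 ± 0.12 (adjusted p = 1.13e-07). Nuak1, a kinase related to AMPK, read 55.9, 57.7 and 45.8 in the uninduced arrays and 149.7, 196 and 169 in the induced arrays and rose by 1.25 ± 0.12 (adjusted p = 3.91e-07). Phc2, a Polycomb protein, read 246, 249 and 281 in the uninduced arrays and 598, 578 and 668 in the induced arrays and rose by 1.15 ± 0.084 (adjusted p = 6.19e-09) on both probe sets.

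Pluripotency genes moved down only in part. Of 19 naive pluripotency genes 4 fell and 1 rose, with a median of -0.29. Nr0b1 (Dax1), an orphan nuclear receptor of stem cells, read 748, 672 and 686 in the uninduced arrays and 404, 301 and 429 in the induced arrays. The groups did not overlap and it fell by 0.85 ± 0.13 (adjusted p = 0.000266). The nuclear receptors Nr5a2 and Esrrb fell by 0.51 and 0.41 and Dppa3 (Stella) by 0.45 (adjusted p = 0.0165, 0.036 and 0.0485); all 3 were lost on leaving out 1 array, with highest adjusted p of 0.103 without induced array 1, 0.209 without induced array 2 and 0.233 without induced array 2. Tbx3, which rose, is also a mesoderm factor. Nanog and Sox2 stood at 0.26 ± 0.081 and -0.22 ± 0.075 and were not called, though Nanog was called with the pair as a block (adjusted p = 0.0437) and without both arrays numbered 3 (adjusted p = 0.0371).

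Of 19 core and primed epiblast genes 5 fell and none rose, with a median of -0.15. Pou3f1 (Oct6), a POU factor of the epiblast, read 1568, 1882 and 1898 in the uninduced arrays and 1044, 1215 and 1298 in the induced arrays and fell by 0.58 ± 0.082 (adjusted p = 0.000122) on both probe sets. Dppa2 and Dppa4, partner proteins of early embryos and stem cells, fell by 0.57 and 0.35, the arginine transporter Slc7a3 by 0.48 and Sall2 by 0.43. Those 4 were lost on leaving out 1 array (highest adjusted p of 0.137 without uninduced array 3, 0.11 without uninduced array 1, 0.157 without induced array 2 and 0.0738 without uninduced array 1), and without both arrays numbered 3 Pou3f1 was the only call of the list. With the pair as a block the list had 6 falls and 1 rise. Pou5f1 (Oct4) stood at -0.12 ± 0.064 and was not called (adjusted p = 0.415). Of 17 germline-type genes Dppa2, Dppa3 and Dppa4 fell, and none was called without both arrays numbered 3. Of 14 DNA methylation and demethylation genes Gadd45a fell by 0.38 ± 0.086 (adjusted p = 0.0116, and 0.0652 without uninduced array 1). This 1 call is 7.14% of the list, where 3.91% of all tested genes were called.

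The largest falls were of genes of mixed roles. Kbtbd11, a Kelch and BTB domain protein, read 340.2, 268 and 264 in the uninduced arrays and 133, 129 and 143 in the induced arrays. It fell by 0.95 ± 0.12 (adjusted p = 2.06e-05), the largest fall named, and fell also at 12 h, by 0.88. Slc35d3, a nucleotide sugar transporter family member, read 207, 231 and 194 in the uninduced arrays and 87.7, 99.04 and 107 in the induced arrays and fell by 0.90 ± 0.13 (adjusted p = 0.000202). Lgals3 (galectin-3) read 328, 291 and 188 in the uninduced arrays and 148, 137 and 113 in the induced arrays, with array 3 lowest in both groups, and fell by 0.85 ± 0.15 (adjusted p = 0.00148). Slc27a2, a fatty acid transport protein, read 693, 832 and 698 in the uninduced arrays and 445, 412 and 496 in the induced arrays and fell by 0.68 ± 0.14 (adjusted p = 0.00482). Serpinf2, the plasmin inhibitor antiplasmin, read 46.6, 41.8 and 35.6 in the uninduced arrays and 4.66, 10.3 and 16.3 in the induced arrays and fell by 0.80 ± 0.18 (adjusted p = 0.01; 0.056 without induced array 1).

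Further falls ran from 0.58 to 0.75 on the log2 scale. They were Spink10, Lypd6b, Has1, Aqp3, Nphs1, Abcb1b, Fam25c, Snhg3, Rnf125, Csrnp1 and Gstt2. Aqp3, a water and glycerol channel, read 87.3, 86.4 and 95.6 in the uninduced arrays and 56.02, 48.02 and 34.9 in the induced arrays, Nphs1 (nephrin) read 126, 132 and 108 in the uninduced arrays and 72.7, 63.7 and 64.3 in the induced arrays, and Gstt2, a glutathione transferase, read 1114, 1059 and 1066 in the uninduced arrays and 780.1, 637 and 726 in the induced arrays. All 20 largest falls had 3 induced arrays below 3 uninduced ones, because they were chosen by that rule. Of the 20 largest falls 6 were lost on leaving out 1 array: Serpinf2 above, Lypd6b, Has1, Aqp3, Snhg3 and Dppa2, with highest adjusted p of 0.0616 without induced array 3 for Lypd6b, 0.18 without uninduced array 2 for Has1, 0.0633 without induced array 3 for Aqp3 and 0.188 without uninduced array 1 for Snhg3.

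Several groups held 2 calls at most. None of 19 S phase, 19 M phase, 22 glycolysis and hypoxia, or 13 trophoblast genes passed, and 3, 2, 4 and 2 of them had an unadjusted p under 0.05 (limma). With the pair as a block 1 S phase and 2 M phase genes were called higher. Among M phase genes Kif20a read 664, 586 and 499 in the uninduced arrays and 822, 805 and 571 in the induced arrays, a difference of 0.31 ± 0.11 (adjusted p = 0.14), which was called with the pair as a block (adjusted p = 0.0106) and without both arrays numbered 3 (adjusted p = 0.02). In the hypoxia group Adm read 23.1, 83.6 and 21.8 in the uninduced arrays and 137, 99.7 and 59.1 in the induced arrays and Ndrg1 157, 337 and 110.1 in the uninduced arrays and 340.2, 365 and 251 in the induced arrays, so that uninduced array 2 lay far above the other uninduced arrays for both and the groups overlapped. Without that array both were called higher (adjusted p = 0.0371 and 0.0485). Of 18 p53 targets Gtse1 fell by 0.36 ± 0.10 (adjusted p = 0.0448, and 0.191 without induced array 2). That is 5.56% of the list, near the 3.91% of all tested genes. Of 18 antigen processing genes Ifitm1 rose by 0.44 ± 0.077 (adjusted p = 0.00141) and Ifitm3 fell by 0.34 ± 0.072 (adjusted p = 0.00719; 0.0555 without uninduced array 1).

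**Figure D4:**
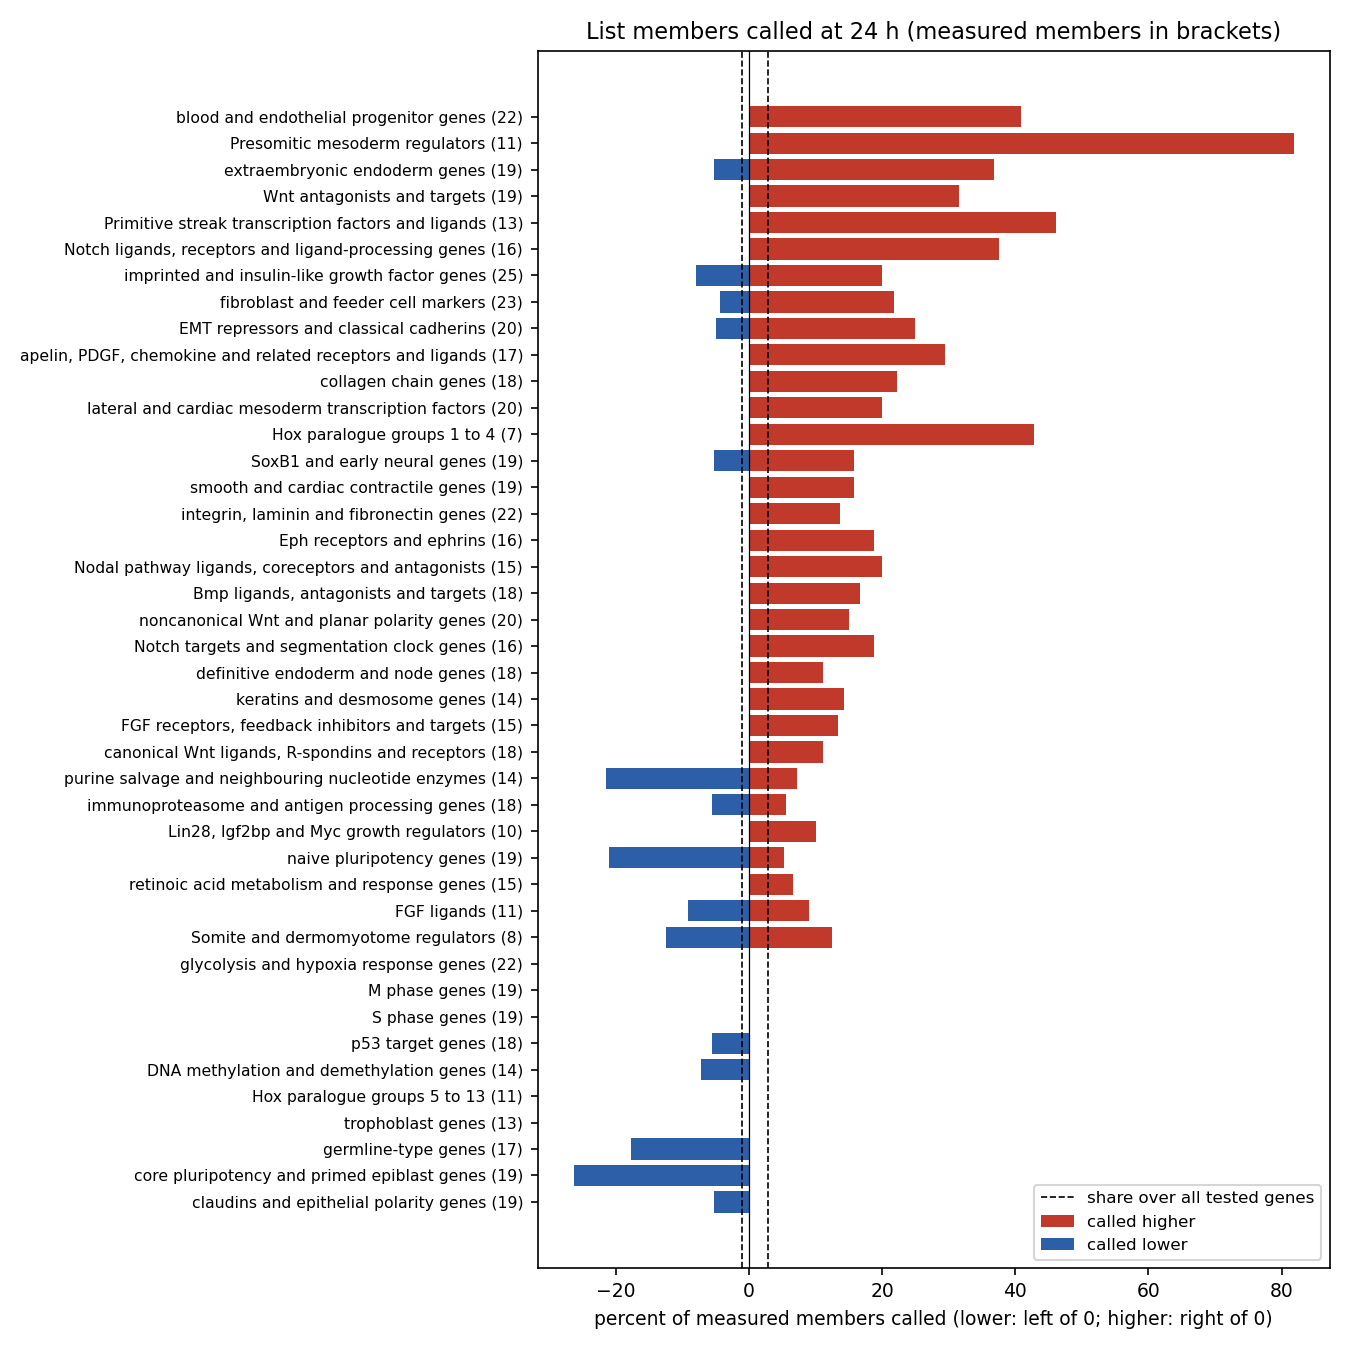
Percent of the measured members of each of 42 gene lists called higher (red, right of 0) or lower (blue, left of 0) at 24 h, with the number measured in brackets and dashed lines at 2.91% higher and 0.994% lower, the shares over all tested genes. Presomitic mesoderm regulators reach furthest to the right (9 of 11), and core pluripotency and primed epiblast genes furthest to the left (5 of 19).

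In all, 118 of the 644 list genes tested were called (18.3%), and 440 called genes stand in no list. The lists were assembled with earlier results of these arrays known, so that their share of calls is not a measure of what is particular to them.

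The 24 h effect was set against those of the other times by testing the difference of effects, gene by gene. At 12 h 154 genes were called (1.08%; 0.896% higher and 0.182% lower) and at 48 h 1773 (12.4%; 6.85% higher and 5.56% lower). Of the 416 rises at 24 h, 364 were also higher at 12 h, 79 of them called, and 370 were higher at 48 h, 232 of them called. Of the 142 falls, 123 were lower at 12 h (11 called) and 120 at 48 h (59 called). The genes were chosen on the 24 h arrays, and these counts describe them. Effects at different times come from different arrays, and all times share the fit's estimate of spread.

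Between 12 h and 24 h the effect of induction changed for 15 genes (0.105%), upward for 12 (0.084%) and downward for 3 (0.021%), and for 28 genes with the pair at 24 h as a block. Aplnr gained most: it went from 0.30 ± 0.19 at 12 h to 2.66 ± 0.19 at 24 h, a step of 2.36 ± 0.27 (adjusted p = 0.000291). Igf2 went from -0.23 ± 0.14 to 1.43 ± 0.14 (step adjusted p = 0.000311). The other gains were those of Gfra2, Greb1l, Pdgfra, Cyp26a1, Nuak1, Tal1, Nrarp, Cdh11, Hmga2 and Msx1, with steps from 0.72 to 1.33. The 3 downward steps were those of Prickle1, from 2.09 ± 0.093 to 1.32 ± 0.093 (adjusted p = 0.0121), Serpinf2, from 0.62 ± 0.18 to -0.80 ± 0.18 (adjusted p = 0.0158), and Neurod1, a neuronal bHLH factor, from 1.24 ± 0.13 to 0.20 ± 0.13 (adjusted p = 0.0153). Without induced array 2 the count was 9, without uninduced array 3 it was 23, and without induced array 1 it was 26. For Dll3, Wnt5a, Rasgrp3, Cited1, Lama1 and Hprt, all called at 12 h, no step to 24 h was called.

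Between 24 h and 48 h the effect changed for 444 genes (3.11%), upward for 209 (1.46%) and downward for 235 (1.65%). Of the 416 rises at 24 h this touched 74, of which 32 grew and the other 42 shrank. The effect on Eomes went from 1.55 ± 0.16 to -0.083 ± 0.16, Lhx1 from 1.47 ± 0.17 to 0.051 ± 0.17, Dact1 from 1.45 ± 0.10 to 0.075 ± 0.10 and Prickle1 from 1.32 ± 0.093 to -0.34 ± 0.093. Each of these 4 steps was called (adjusted p = 0.000199, 0.00101, 3.92e-06 and 3.26e-07). With Aplnr, Fabp7, Sema6d and Cyp26a1 these genes belong to those whose effect was larger at 24 h than at 48 h. Mean signal itself rose from 24 h to 48 h in both groups for Eomes (485 to 2780 uninduced, 1453 to 2685 induced) and Lhx1 (77.9 to 1042, 273 to 1070). So it did for Aplnr (77.5 to 1690, 670 to 3247) and Dact1 (99.2 to 395, 326 to 419). For Prickle1 it rose uninduced (323 to 673) and fell induced (853 to 525.5), as for Fabp7 (56.1 to 142, 327 to 219). The effect on Igf2 grew, from 1.43 ± 0.14 to 3.83 ± 0.14 (step adjusted p = 4.08e-07), as did that on Kdr, from 1.19 ± 0.15 to 2.39 ± 0.15, and Tbx3, from 0.51 ± 0.14 to 2.17 ± 0.14. Hoxb1, Hoxb2 and Hoxb3 rose further, to 1.52, 1.95 and 1.59 at 48 h. Among genes not called at 24 h, the genes Pmp22, Foxf1, Hand2, Bmp4, Msx2 and Amer3 stepped up by 1.73 to 2.86, and Foxa2, Cer1 and Trh stepped down by 2.00, 1.59 and 1.51.

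**Figure D5:**
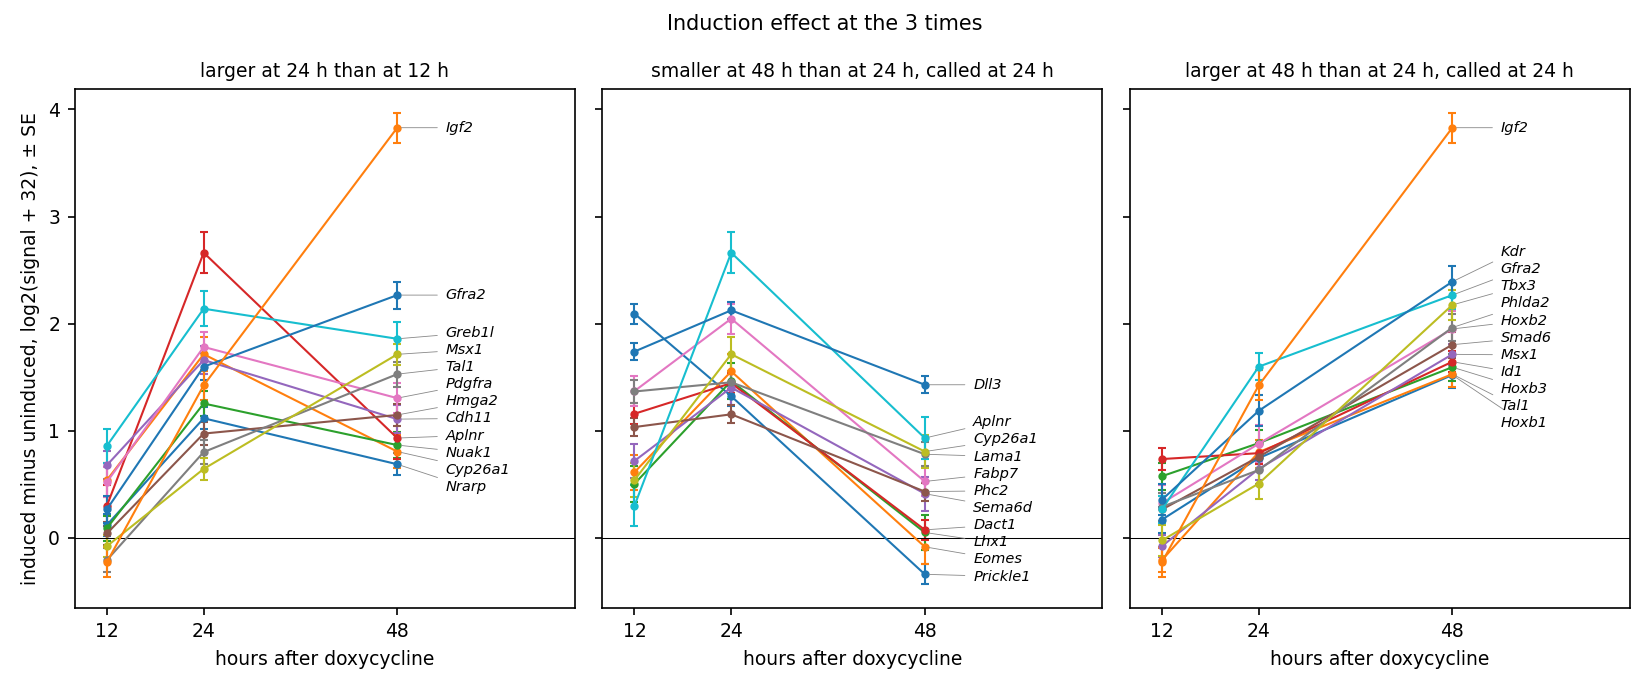
Induction effect (induced minus uninduced on the log2(signal + 32) scale, with the SE of the fit) at 12, 24 and 48 h after doxycycline, for genes whose effect was larger at 24 h than at 12 h (left), for the large rises at 24 h whose effect was smaller at 48 h (middle) and for named genes called higher at 24 h whose effect was larger at 48 h (right). The effect, not the signal, is largest at 24 h for Aplnr (2.66). It falls from 2.09 at 12 h to -0.34 at 48 h for Prickle1 and climbs from -0.23 to 3.83 for Igf2.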

How the data were processed

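RNA of mouse embryoid bodies was labelled with a 3′ in vitro transcription kit and read on Affymetrix arrays, per the labels' protocols. The deposited values are signal intensity on a linear scale for 45101 probe sets; GCOS was used, per the submitters' processing notes, and the signal algorithm is not given in the sources used here. Groups and replicate numbers came from sample titles.

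Control probe sets (64) were left out, 34945 of the rest had 1 gene, and those with a group mean of at least 13.3 (the 40th percentile) in any group were kept, with the brightest probe set standing for its gene. Values were transformed to log2(signal + 32). Limma 3.58.1 in R 4.3.3 fitted 1 mean per group over 18 arrays (12 residual degrees of freedom, variance trend), with p-values 2-sided and adjusted by Benjamini-Hochberg. The steps were tested on simulated data with independent noise on each array, which lack the deviation shared by the arrays numbered 3. The number of arrays limits the precision. Deviations of same-numbered arrays at 24 h correlated at 0.20, 0.14 and 0.44, all over 0.1, so the numbers were taken to pair arrays at 24 h. At 12 h and 48 h they reached at most 0.083. At 24 h uninduced array 1 with induced array 2, and uninduced array 2 with induced array 1, correlated at 0.12 and 0.20, also over 0.1. The rule therefore does not tell numbers 1 and 2 apart. Alternatives were quantile normalization, filters, offsets, probe set rules, variance models, the 24 h arrays alone, replicate blocks, and leaving out arrays. Figures were drawn with matplotlib 3.10.9.

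The members and the 42 lists (748 genes, 644 tested) were chosen with earlier results of these data known. Named genes are Msgn1, among called genes without overlap between groups the top 30 rises and top 20 falls by size (clone names and predicted genes passed over), up to 5 called members per list (2 by size where none was called), the 8 largest called differences of effects in each direction, and the 10 genes most shared by the arrays numbered 3 in each direction; other genes given by value were chosen for their role with values seen. Brachyury (T) was not analysed here.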

Additional observations from a re-analysis of the deposited data

Results flagged for a closer look

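The genes below were singled out because the effect of induction at 24 h differed from that at another time by limma's test of the difference itself, adjusted over all 14282 genes. Each value is a difference of 2 effects, later minus earlier, on the log2(signal + 32) scale, with 3 arrays in each of the 4 groups behind it. These differences share the 24 h arrays, the genes were named in part for their 24 h change, and no explanation was tested.

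From 12 h to 24 h the effect grew by 2.36 for Aplnr, 1.28 for Greb1l, 1.26 for Pdgfra, 1.17 for Cyp26a1, 0.98 for Cdh11, 1.33 for Gfra2, 1.65 for Igf2, 1.16 for Nuak1, 1.00 for Nrarp, 0.72 for Msx1, 1.01 for Tal1 and 0.93 for Hmga2. It dropped over the same time with steps of -0.77 for Prickle1, -1.41 for Serpinf2 and -1.05 for Neurod1.

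From 24 h to 48 h the effect on genes called higher at 24 h shrank with steps of -1.73 for Aplnr, -0.69 for Dll3, -1.52 for Fabp7, -0.91 for Cyp26a1, -1.64 for Eomes, -1.41 for Lhx1, -0.67 for Lama1, -1.37 for Dact1 and -0.99 for Sema6d. The same was measured with steps of -1.66 for Prickle1, -0.72 for Phc2, -0.92 for Jag1, -0.71 for Hes6, -0.55 for Ror2, -0.57 for Tdgf1 and -1.18 for Epha7. For other genes called higher at 24 h the effect grew, with steps of 0.67 for Gfra2, 2.40 for Igf2, 1.21 for Kdr, 0.85 for Id1, 1.05 for Smad6, 1.07 for Msx1, 1.67 for Tbx3, 0.73 for Tal1, 0.71 for Hoxb3, 1.07 for Hoxb2, 0.78 for Hoxb1 and 1.33 for Phlda2.

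For genes called lower at 24 h the effect became more negative by 48 h with steps of -1.07 for Irs4, -1.03 for Slc27a2, -0.70 for Pou3f1, -0.70 for Epcam, -0.66 for Slc7a3 and -0.88 for Sox3. Other genes called lower at 24 h moved back up with steps of 0.60 for Kbtbd11, 0.98 for Spink10, 0.99 for Abcb1b, 0.86 for Ifitm3 and 0.38 for Aprt. Genes with no call at 24 h changed later, with steps of -2.0 for Foxa2, -1.59 for Cer1 and -1.51 for Trh downward, and of 2.86 for Pmp22, 2.86 for Foxf1, 2.37 for Hand2, 2.21 for Bmp4, 1.89 for Msx2 and 1.73 for Amer3 upward.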

How the results depend on the processing

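The 558 calls at 24 h (416 higher, 142 lower) fell to 241 (201 and 40) when the 24 h arrays were fitted alone, with 4 residual degrees of freedom, and to 328 (261 and 67) without both arrays numbered 3. Leaving out 1 array at a time gave 306 to 456 calls, 253 to 355 higher and 53 to 104 lower. The 15 differences between 12 h and 24 h became 9 with probe sets averaged per gene, 28 with a replicate block at 24 h, 24 with a replicate block at all times, and 9 to 26 without single arrays. The 444 differences between 24 h and 48 h ranged from 321 to 428 without single arrays. The cause of these shifts was not tested beyond the loss of arrays. Under the other settings the counts over all genes stayed within 1.5 times their main value: quantile normalization gave 536 calls, no filter 435, a filter at the 60th percentile 603, offsets of 16 and 64 gave 551 and 552, and the replicate block gave 725. The genes called were not all the same. Of the 558, 492 were kept with quantile normalization, 427 with no filter and 410 with probe sets averaged per gene, which called 522. The share of calls that were higher was 74.6%, and 69.8% to 77.2% under these changes of scale, filter and probe set rule. No gene called at 24 h changed direction under any setting, among the 128 chosen by the naming rules; of the 38 such genes not called, 17 took the other sign in at least 1 setting, without a call in it, among them Foxa2, Cer1 and Foxf1. Over the 166 named genes and all settings 2704 values kept their side of the threshold, 266 lost the call and 15 gained it; of the counts per list 1328 stayed within 1.5 times and 184 did not. With the replicate block, beyond the lists given above, counts of falls rose from 1 to 2 for epithelial transition, DNA methylation, p53 and antigen processing genes and from 0 to 1 for growth regulators, and of rises from 1 to 2 for naive pluripotency genes, from 6 to 7 for Notch ligands and receptors and for Wnt antagonists and targets, from 3 to 4 for Notch targets, integrin, laminin and fibronectin genes and contractile genes, and from 5 to 6 for imprinted genes. No gene described as called at 24 h lost its call with the block. Dim genes are compressed by the offset, and detection calls were not used. With every probe set fitted apart, all 3 were called for Wnt5a and Peg3, but 1 of 3 for Jag1 and Epha7. It was 1 of 2 for Igf2, Lef1, Rspo3, Fn1, Gata4, Gata6 and Msx1, 2 of 7 for Spred1 and 2 of 5 for Zeb2. It was also 1 of 2 for Kbtbd11, Notch1, Nrarp, Hoxb3, Irs4, Efna3, Ror2, Dsp, Pdgfrb, Itga8, Frzb, Gda and Csrnp1. For Esrrb and Aqp3 it was 1 of 3, for Nr5a2 1 of 4, for Fgf4 2 of 4 and for Sox11 2 of 6. For Fgfr1, Tbx3 and Fbln1 none of 3 was called, and for Dppa2, Epcam and Sox3 none of 2.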

Other observations

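Probe sets with no single gene name were tested apart from the genes: of 4623 such probe sets 16 were called at 24 h, 11 of them higher. Across genes the 24 h effects correlated at 0.41 with those at 12 h and at 0.44 with those at 48 h; these come from different arrays, genes are not independent replicates, and the values are descriptions.

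The Hprt effect was 1.83 ± 0.12 at 12 h, 2.44 ± 0.12 at 24 h and 2.94 ± 0.12 at 48 h. Neither step was called (adjusted p = 0.279 and 0.143). Its neighbour on chromosome X with the largest 24 h difference was Gpc3, at 0.28 ± 0.14 (adjusted p = 0.381), followed by Gpc4 at 0.26 ± 0.091 (adjusted p = 0.134).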
